A study of Mus musculus with 14 samples.

Results

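Blood group antigens and related erythroid surface glycoproteins were followed through 9 genes, Icam4, Ermap, Rhd, Rhag, Kel, Gypc, Cd24a, Cd44 and Cd47, in embryonic red cell precursors that lack the transcription factor KLF1 or are labelled as lacking KLF1 and KLF2. The genes were chosen by name, with earlier results of these data known. Every probe set that the array annotation pairs with 1 of them was used, which gave 15 of 22626 probe sets and 9 of 12393 genes. Counts among these probe sets, set beside those of the whole array, are therefore a description and not a test of enrichment. Icam4 fell by 1.66 on the log2 scale in the 6 KLF1-deficient samples, and Cd24a by 1.34 at the 1 of its 3 probe sets that passed the test, with −1.27 and −1.29 at the others. Ermap differed most, at −2.14, and lay at an adjusted p of 0.0505 in limma, just outside the threshold of 0.05. Rhd was lower by a smaller amount that did not pass the test, and no probe set of Rhag, Kel, Gypc, Cd44 or Cd47 passed in any comparison.

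The samples were primitive erythroid precursors, nucleated red cells of the yolk sac, taken at embryonic day 9.5 by laser capture from frozen 8 µm sections. There were 3 KLF1-/- samples, 3 labelled KLF1-/- KLF2-/- and 8 wild-type samples, all labelled as strain FVB/N. The embryos came from KLF1+/- and KLF1+/- KLF2+/- mothers and were genotyped by PCR on embryo tail, so the factors were missing from the whole embryo and not from the red cells alone. Each sample pooled 2 to 4 yolk sacs from 2 litters, and 10 to 20 ng of RNA was amplified for 1 Affymetrix array, read here as log2 expression per probe set, the group of short probes designed against a transcript. The series asks how KLF1, KLF2 and c-myc act in embryonic erythropoiesis.

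Red cell surface glycoproteins carry the blood group antigens and link the cell to its neighbours and to its own skeleton. Several of them sit in complexes around the anion exchanger band 3, the Rh proteins and protein 4.1, while others are adhesion molecules that immature erythroid cells use to hold on to macrophages, stroma or matrix. KLF1 binds CACCC-type elements and activates many red cell genes, often beside sites for the erythroid factor GATA1, and human KLF1 variants are known to weaken several blood group antigens, among them those on CD44 and BCAM.

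The promoters of 4 of the genes are shown because these 4 differed in their response. Icam4 and Ermap were lowest in the mutants relative to wild type, Rhd was lower by less, and Rhag was not lower. They are 300-base RefSeq windows of build GRCm38.p6, written 5′ to 3′ on the strand of the gene. Capitals mark matches to a KLF motif, CCNCNCCC, or to the GATA motifs AGATAA and TGATAA, searched on both strands, and no KLF match overlaps a GATA match in these 4 windows.
Icam4 (chr9:21029182-21029481, plus strand): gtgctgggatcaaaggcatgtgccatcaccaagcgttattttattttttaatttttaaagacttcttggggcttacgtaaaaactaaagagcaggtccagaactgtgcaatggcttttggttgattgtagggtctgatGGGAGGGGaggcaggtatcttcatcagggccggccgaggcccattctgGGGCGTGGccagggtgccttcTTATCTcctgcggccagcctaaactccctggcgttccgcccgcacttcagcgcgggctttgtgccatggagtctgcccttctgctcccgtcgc
Ermap (chr4:119189946-119190245, minus strand): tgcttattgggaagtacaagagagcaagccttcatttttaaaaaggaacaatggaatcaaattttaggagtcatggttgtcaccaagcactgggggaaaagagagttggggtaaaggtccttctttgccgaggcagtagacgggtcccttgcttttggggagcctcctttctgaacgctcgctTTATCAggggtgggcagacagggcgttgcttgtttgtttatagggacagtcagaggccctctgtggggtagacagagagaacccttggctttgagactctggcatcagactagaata
Rhd (chr4:134864286-134864585, plus strand): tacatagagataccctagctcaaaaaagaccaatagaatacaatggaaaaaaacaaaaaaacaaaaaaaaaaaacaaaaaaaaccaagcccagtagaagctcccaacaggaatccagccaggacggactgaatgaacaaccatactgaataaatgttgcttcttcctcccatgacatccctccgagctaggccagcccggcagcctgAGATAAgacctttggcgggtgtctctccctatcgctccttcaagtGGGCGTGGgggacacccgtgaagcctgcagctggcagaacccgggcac
Rhag (chr17:40810899-40811198, plus strand): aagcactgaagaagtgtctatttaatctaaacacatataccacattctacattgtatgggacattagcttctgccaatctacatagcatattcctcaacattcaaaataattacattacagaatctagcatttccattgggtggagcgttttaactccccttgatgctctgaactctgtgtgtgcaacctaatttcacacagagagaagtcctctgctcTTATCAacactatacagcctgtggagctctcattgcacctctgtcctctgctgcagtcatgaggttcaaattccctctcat

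The Icam4 window held 2 KLF matches, beginning at positions −112 and −64 from the annotated start of transcription, and 1 GATA match at −43. In the Rhd window there was 1 KLF match at position 3 and 1 GATA match, also at −43. Neither Ermap nor Rhag had a match to CCNCNCCC in these windows, while each had 1 GATA match, at −67 for Ermap and −31 for Rhag. The shorter element CACCC, searched on both strands and not in capitals above, was present in all 4, at −53 in Icam4, −60 in Ermap, −112 in Rhag, and −27 and 15 in Rhd. Of all 32851 RefSeq promoter windows of this length, 49.5% held the KLF motif, 57.5% CACCC and 18.6% a GATA motif, so a match to the first or second is common, and a match is a description of the letters and not a binding site. Of the other genes, Kel, Cd44 and Cd47 also had windows in the table. Cd44, which was not lower in the mutants, had 6 matches to the KLF motif, several of them overlapping, more than Icam4, together with 1 GATA match and 0 of CACCC. Kel had 0 KLF, 2 GATA and 1 CACCC match, and both Cd47 windows had 0 KLF, 0 GATA and 2 CACCC matches.

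The arrays had medians between 6.55 and 6.66 and interquartile ranges between 2.31 and 3.12, and the signal ratio of Gapdh between its 3′ and 5′ control probe sets lay between 3.90 and 5.28 on the log2 scale, a measure of RNA integrity and amplification whose range overlapped between all groups. The same ratio for Actb ran from 4.74 to 5.07 in KLF1-/-, from 4.67 to 5.25 in KLF1-/- KLF2-/- and from 3.74 to 5.52 in wild type. Within title numbers 9 to 15, however, it was higher on all 3 KLF1-/- KLF2-/- arrays than on the 4 wild-type arrays, which ran from 3.74 to 4.55. The deleted gene Klf1 averaged 9.45 ± 0.39 in KLF1-/- and 9.15 ± 0.53 in KLF1-/- KLF2-/- (SD, n = 3 each), against 10.67 ± 0.63 in wild type (n = 8), with no overlap but an adjusted p of 0.151 in limma for the 6 mutant arrays together. Klf2 averaged 6.22 in KLF1-/- and 6.69 in KLF1-/- KLF2-/-, against 6.25 in wild type. It is not known whether the probes fall inside the deleted parts of either gene, so neither probe set checks the genotypes. Of 14 listed erythroid markers 13 were measured and 11 were above the median level of all probe sets in wild type. The log2 of their summed signal ran from 15.72 to 16.03 in KLF1-/-, 15.72 to 16.21 in KLF1-/- KLF2-/- and 15.71 to 16.35 in wild type. The globins Hbb-y and Hbb-bh1, at 14.42 and 14.49 in wild type, make up most of that sum, so it says little about the other markers. Over the 6 mutant arrays 7 of the 13 were lower and 6 higher, where 5980 of 12393 genes were lower. Tfrc at −1.51, Klf1 at −1.37 and Slc4a1 at −0.90 had an unadjusted p under 0.05 in limma, as did 2.76% of all probe sets. Nfe2, at 0.53, was raised most. Markers of other cells were also measured. The log2 summed signal of 8 of 10 megakaryocyte and platelet markers ran from 11.64 to 12.17 in KLF1-/-, from 12.004 to 12.54 in KLF1-/- KLF2-/- and from 11.16 to 11.98 in wild type, and that of 10 of 10 macrophage markers from 10.57 to 10.81 in KLF1-/-, from 11.15 to 11.33 in KLF1-/- KLF2-/- and from 10.30 to 11.07 in wild type. Both sums were thus higher on every KLF1-/- KLF2-/- array than on any wild-type array, but the brightest markers weigh most in them. By marker, 7 of 10 macrophage means were above wild type in KLF1-/- KLF2-/- and 3 below, from 1.42 for Laptm5 to −0.16 for C1qc. For platelets 7 were above and 1 below, with Pf4, the brightest, at 0.75. Of all 12393 genes 6457 were above. The same sums for mesenchyme, endothelium and visceral endoderm overlapped between all groups. All 10 mesenchyme markers nonetheless averaged above wild type in KLF1-/- KLF2-/-, with a median difference of 0.38. The part of these other cells in the results below was not tested. In such bulk material fewer cells of a type and less RNA per cell cannot be told apart.

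The sample titles carry numbers in 2 runs: 1 to 8 hold the KLF1-/- samples and 4 wild-type ones, and 9 to 15 hold the KLF1-/- KLF2-/- samples and the other 4 wild-type ones. The labels do not say that these runs are batches. Among wild-type arrays alone, no probe set of the whole array passed limma between numbers 9 to 12 and 1 to 4, with 1614 at an unadjusted p under 0.05 and a smallest adjusted p of 0.639. Several of the surface genes nonetheless read higher in wild type 9 to 12 than in wild type 1 to 4, by 1.51 for Ermap, 0.97 for Kel, 0.97 for Rhag, 0.70 for Gypc and 0.58 for Rhd, whereas Icam4 differed by 0.23 and the Cd24a probe sets by −0.24 to −0.48. Each mutant genotype was therefore also set against the wild-type arrays of its own run, by fitting the run as a block. Mutant and wild-type arrays are equally many in both runs, so the block leaves every pooled difference as it was and changes only its error. A pooled call with the block is therefore not an independent check.

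Across the 15 probe sets, the difference from wild type ran from −2.22 to 0.44 in KLF1-/-, from −2.06 to 0.63 in KLF1-/- KLF2-/- and from −2.14 to 0.37 in the 6 mutant arrays pooled. In KLF1-/-, 1 of 15 probe sets was called lower and 0 higher, where 0.0265% of all probe sets were called lower and 0% higher, and 6 of 15 had an unadjusted p under 0.05, against 1.92% of all. In KLF1-/- KLF2-/-, limma called 0 of 15, where 0.0177% of all probe sets were called lower and 0.00442% higher, and 6 of 15 had an unadjusted p under 0.05, against 2.11% of all. With the 6 mutant arrays pooled 2 of 15 were called lower, where 0.053% of all probe sets were, 0 were called higher, where 0.0177% were, and 6 of 15 had an unadjusted p under 0.05, against 2.76% of all. In each comparison those 6 were the probe sets of Icam4, Ermap and Rhd and all 3 of Cd24a. The Cd24a probe sets measure 1 gene, so the 6 are not independent. These 3 comparisons share the wild-type arrays, and the pooled one is the mean of the others.

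Separation of the arrays was counted as well. At 3 of 15 probe sets the 3 KLF1-/- arrays were all lower than any wild-type array (0.23% of all probe sets), at 5 of 15 the 3 KLF1-/- KLF2-/- arrays were (0.305%), and at 3 of 15 all 6 mutant arrays were (0.106%). The opposite, with every mutant array above, occurred at 0 of 15 in KLF1-/- (0.283% of all), 0 of 15 in KLF1-/- KLF2-/- (0.393%) and 0 of 15 in the 6 pooled (0.0619%). Against the wild-type arrays of the same run, every KLF1-/- array was lower at 4 of 15 (1.4%) and higher at 1 of 15 (1.56%), and every KLF1-/- KLF2-/- array was lower at 6 of 15 (1.46%) and higher at 0 of 15 (2.89%). The probe sets on the lower side belonged to Icam4, Ermap and Cd24a, joined by Rhd in KLF1-/- KLF2-/- against its own run. Both KLF1-/- KLF2-/- counts hold all 3 Cd24a probe sets, which measure 1 gene.

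**Figure D1:**
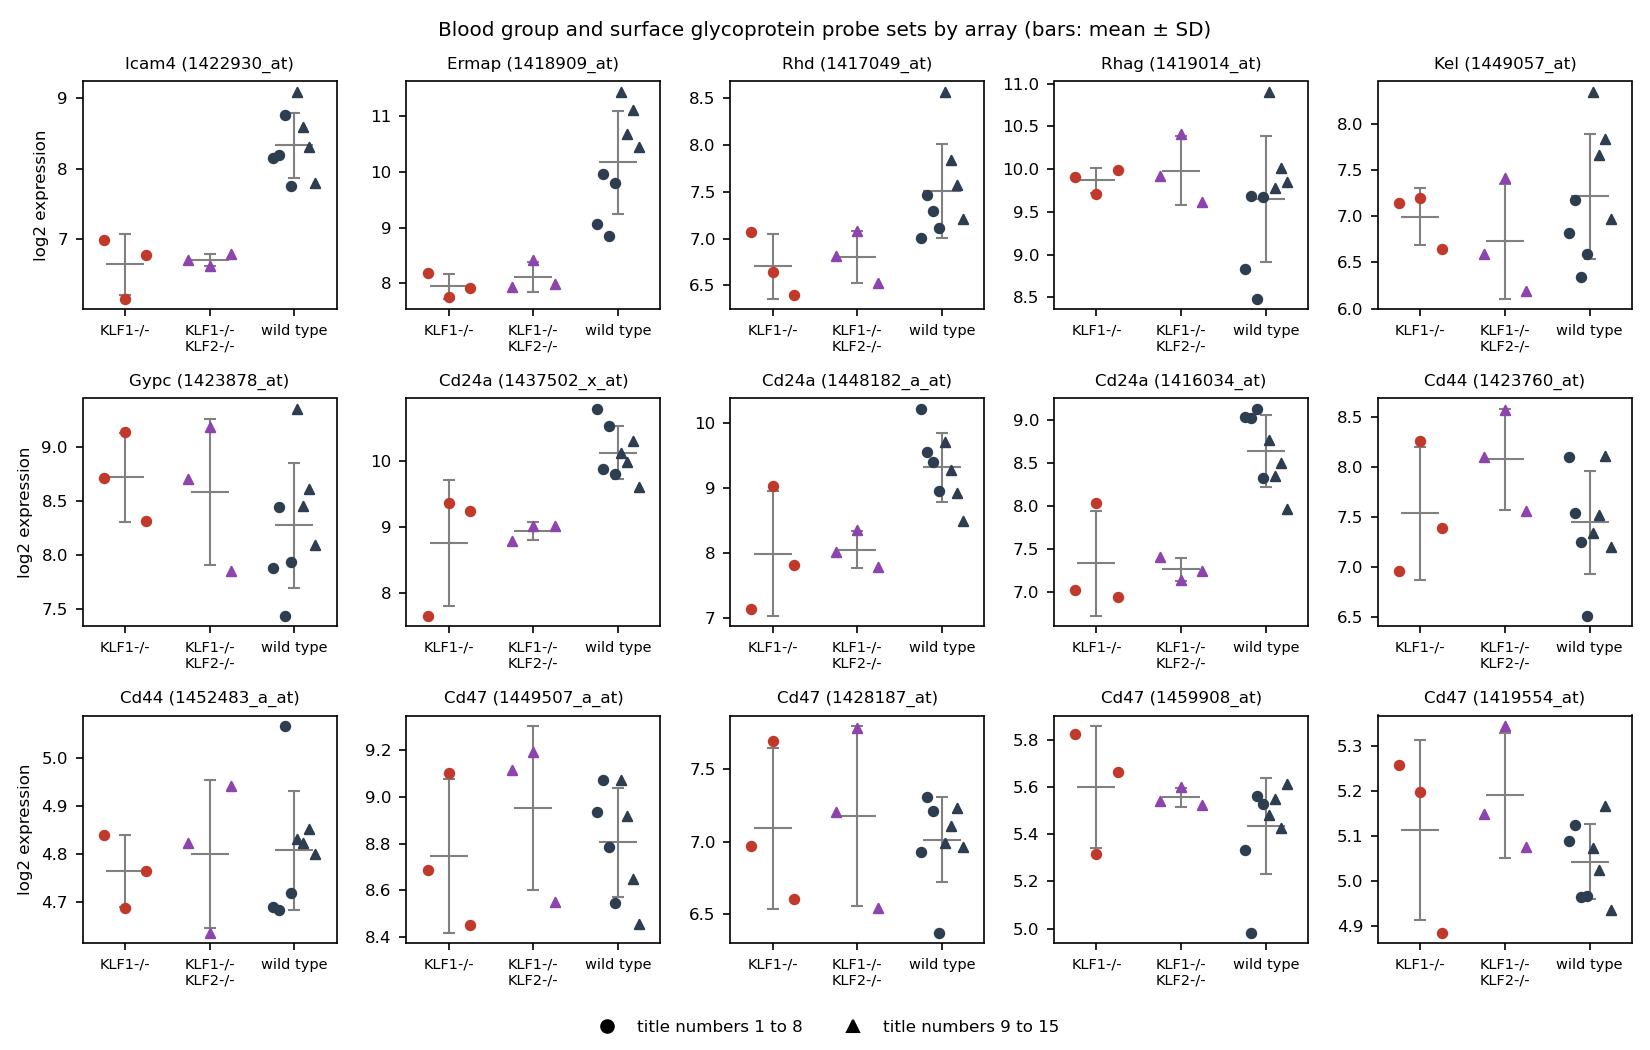
Log2 expression of each of the 15 probe sets on each array, with the group mean and SD as grey bars; circles are title numbers 1 to 8 and triangles 9 to 15. For Icam4, Ermap and the Cd24a probe set 1437502_x_at all 6 mutant arrays lie below all 8 wild-type arrays, while for Rhag, Gypc, Cd44 and Cd47 the groups overlap.

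Icam4 encodes the immunoglobulin-family glycoprotein that carries the Landsteiner-Wiener antigen and binds integrins, among them those of macrophages in erythroblastic islands. Its probe set, 1422930_at, read 6.98, 6.15 and 6.78 in KLF1-/- and 6.70, 6.62 and 6.79 in KLF1-/- KLF2-/-, against a lowest value of 7.75, a median of 8.25 and a highest of 9.09 in wild type. The highest mutant array was thus below the lowest wild-type array. Group means were 6.64 ± 0.43 in KLF1-/-, 6.70 ± 0.084 in KLF1-/- KLF2-/- and 8.33 ± 0.46 in wild type. The difference was −1.69 in KLF1-/- (SE 0.258, adjusted p = 0.0477 in limma), which is 3.23-fold lower. In KLF1-/- KLF2-/- it was −1.63 (SE 0.258, adjusted p = 0.0586), which did not pass, although it was called under 6 of 8 alternative settings, with adjusted p from 0.0251 to 0.0907 over all 8. Of the 14 fits without 1 array the KLF1-/- KLF2-/- difference was called in 3, with adjusted p from 0.0378 to 0.509. All 6 mutant arrays together gave −1.66 (SE 0.206, adjusted p = 0.00554), or 3.16-fold lower. Against the wild-type arrays of the same run Icam4 was −1.58 in KLF1-/- (adjusted p = 0.257) and −1.75 in KLF1-/- KLF2-/- (adjusted p = 0.0907), so neither genotype alone was called there, while the pooled difference was (adjusted p = 0.00597). Leaving out 1 array at a time, the KLF1-/- call was lost in 11 of 14 fits, with adjusted p from 0.0708 to 0.495, and held without wild-type array 4, 9 or 12. The pooled call held in all 14 fits, at 0.00356 to 0.0293.

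Ermap encodes an erythroid membrane protein of the butyrophilin-like family that carries the Scianna antigens. On probe set 1418909_at it read 8.19, 7.75 and 7.91 in KLF1-/- and 7.93, 8.42 and 7.98 in KLF1-/- KLF2-/-, against 8.84 at the lowest, 10.21 at the median and 11.43 at the highest in wild type. The mutant arrays stood close together and below every wild-type array, whereas wild type spread over 2.59 units, with an SD of 0.93, the largest among the 15 probe sets. That spread followed the title numbers: wild type 1 to 4 lay between 8.84 and 9.96, wild type 9 to 12 between 10.45 and 11.43. The difference was −2.22 in KLF1-/- (SE 0.457, adjusted p = 0.347), −2.06 in KLF1-/- KLF2-/- (SE 0.457, adjusted p = 0.412) and −2.14 over the 6 mutant arrays (SE 0.364, adjusted p = 0.0505), or 4.40-fold lower, with none of them called. Within runs it was −1.47 in KLF1-/- (adjusted p = 0.349) and −2.81 in KLF1-/- KLF2-/- (adjusted p = 0.00251), and the KLF1-/- KLF2-/- value was called there, as was the pooled one (adjusted p = 0.000769). Those within-run values for the 2 mutant genotypes differed by −1.34, with an unadjusted p of 0.00572 and an adjusted p of 1. Mutant means were 7.95 ± 0.22 in KLF1-/- and 8.11 ± 0.27 in KLF1-/- KLF2-/-, while the wild-type means were 9.41 ± 0.55 in numbers 1 to 4 and 10.92 ± 0.44 in numbers 9 to 12 (SD, n = 4 each), so the within-run values moved apart with the wild-type arrays. The Actb ratio named above also separates KLF1-/- KLF2-/- from wild type within that run, and its part in the within-run differences was not tested.

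**Figure D2:**
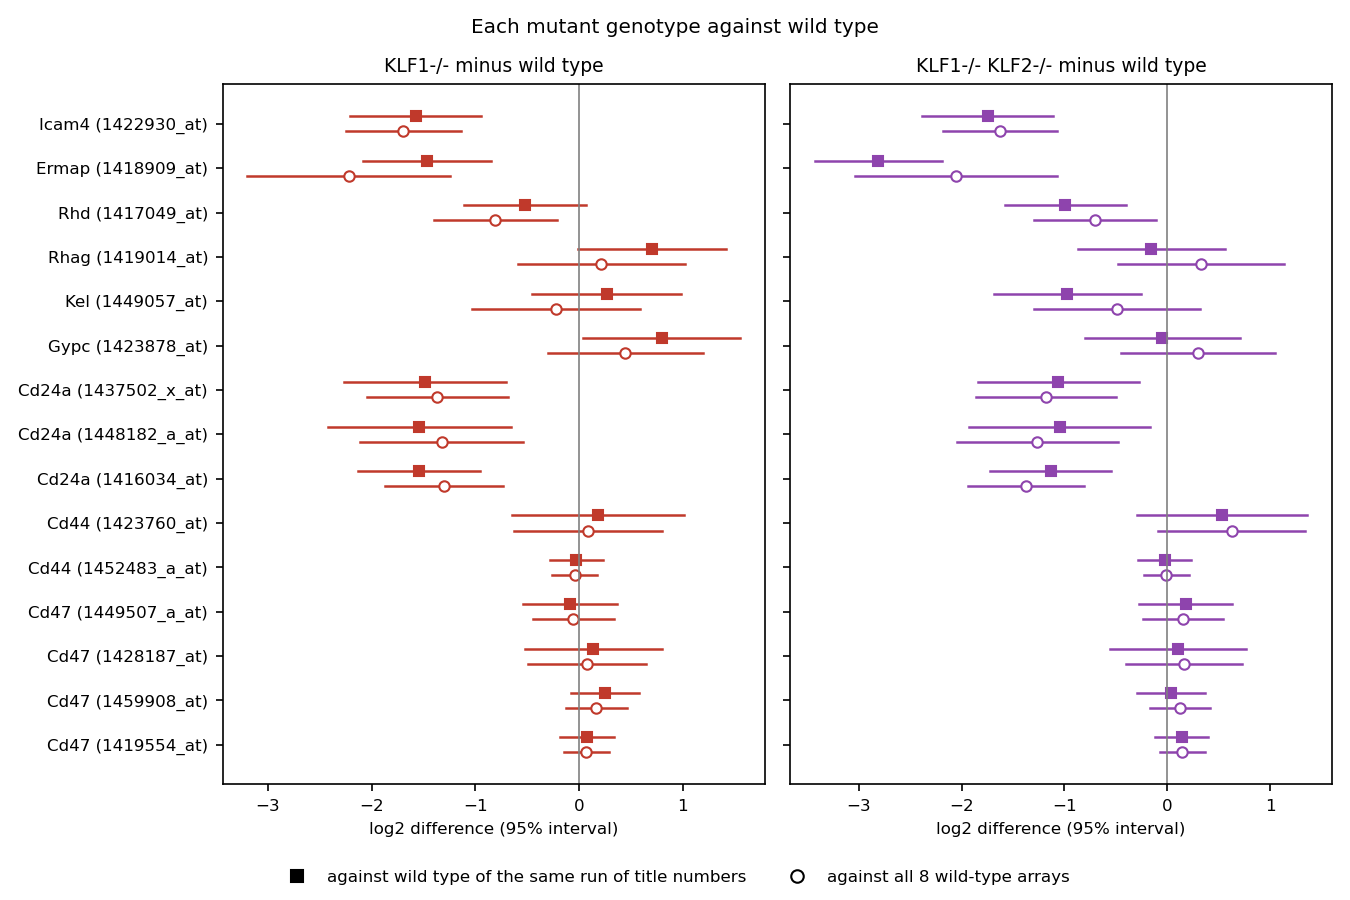
Log2 difference of each mutant genotype from wild type for the 15 probe sets, with 95% intervals; filled squares use the wild-type arrays of the same run of title numbers, open circles all 8. For Ermap the filled squares stand at −1.47 in KLF1-/- and −2.81 in KLF1-/- KLF2-/-, whereas Icam4 lies between −1.58 and −1.75 in the same fits.

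The Rh proteins are a core of the red cell membrane: Rhd encodes the mouse Rh polypeptide, and Rhag the associated glycoprotein, which conducts ammonia and is needed for Rh proteins to reach the surface. Rhd (1417049_at) read 7.07, 6.64 and 6.39 in KLF1-/- and 6.81, 7.08 and 6.52 in KLF1-/- KLF2-/-, against 7.01, 7.38 and 8.57 at the lowest, median and highest in wild type. The groups overlapped narrowly, since 1 array of each mutant genotype lay above the lowest wild-type array. Its differences were −0.81 in KLF1-/- (SE 0.276), −0.70 in KLF1-/- KLF2-/- (SE 0.276) and −0.76 together (SE 0.220, unadjusted p = 0.00401, adjusted p = 0.715 in limma), none of which passed. Within runs they were −0.52 in KLF1-/- and −0.99 in KLF1-/- KLF2-/-. Rhag (1419014_at) read 9.90, 9.71 and 9.99 in KLF1-/- and 9.92, 10.41 and 9.61 in KLF1-/- KLF2-/-, against 8.48, 9.73 and 10.90 at the lowest, median and highest in wild type. All mutant arrays lay inside the wild-type range, 4 of the 6 above its median. The pooled difference for Rhag was 0.27, with a 95% interval from −0.37 to 0.91. Its sign turned with the run: the within-run difference was 0.70 in KLF1-/-, where all 3 arrays exceeded wild type 1 to 4, as was so for 1.56% of all probe sets, and −0.15 in KLF1-/- KLF2-/-. Rhd and Rhag thus had pooled differences of opposite sign, and only that of Rhd had an interval that left out 0, from −1.23 to −0.28.

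Cd47, an immunoglobulin-family protein associated with the Rh complex and the ligand of the macrophage receptor SIRPα, was measured by 4 probe sets, more than any other of the genes. The brightest, 1449507_a_at, read 8.69, 9.10 and 8.45 in KLF1-/- and 9.12, 9.20 and 8.55 in KLF1-/- KLF2-/-, against 8.46, 8.85 and 9.07 at the lowest, median and highest in wild type. Its pooled difference was 0.046, with a 95% interval from −0.26 to 0.36. The other 3 gave pooled differences of 0.12 (1428187_at), 0.14 (1459908_at) and 0.11 (1419554_at). No Cd47 probe set passed, and the mutant and wild-type arrays overlapped on all 4. Probe sets 1459908_at and 1419554_at lay below the median level of all probe sets, 6.62, where log2 differences are compressed.

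Kel and Gypc stand for the Kell and Gerbich blood groups. Kel encodes a surface endopeptidase that processes endothelins, and its probe set, 1449057_at, read 7.15, 7.20 and 6.64 in KLF1-/- and 6.60, 7.41 and 6.18 in KLF1-/- KLF2-/-, against 6.34, 7.07 and 8.35 at the lowest, median and highest in wild type. The groups overlapped, and the pooled difference was −0.35, with an interval from −0.999 to 0.29. Within runs Kel was 0.27 in KLF1-/- and −0.97 in KLF1-/- KLF2-/- (unadjusted p = 0.0117, adjusted p = 1), a change of sign that moves with the 0.97 between the wild-type runs. Gypc encodes glycophorin C, which anchors protein 4.1 and the spectrin skeleton to the membrane. On 1423878_at it read 8.71, 9.14 and 8.31 in KLF1-/- and 8.70, 9.19 and 7.85 in KLF1-/- KLF2-/-, against 7.44, 8.27 and 9.35 at the lowest, median and highest in wild type. Its pooled difference was 0.37, with an interval from −0.22 to 0.97, and its within-run differences were 0.80 in KLF1-/- and −0.048 in KLF1-/- KLF2-/-. For both genes the mutant arrays lay inside the wild-type range, apart from 1 KLF1-/- KLF2-/- array of Kel.

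Cd24a, the heat-stable antigen, is a small GPI-anchored mucin-like glycoprotein of immature erythroid cells and lymphocytes, and its 3 probe sets gave nearly the same differences. Probe set 1416034_at read 7.02, 8.04 and 6.95 in KLF1-/- and 7.41, 7.14 and 7.25 in KLF1-/- KLF2-/-, against 7.97, 8.64 and 9.13 at the lowest, median and highest in wild type. Only KLF1-/- array 6 reached above the lowest wild-type array. Group means were 7.34 ± 0.61 in KLF1-/-, 7.27 ± 0.14 in KLF1-/- KLF2-/- and 8.64 ± 0.42 in wild type. The pooled difference of −1.34 was called (SE 0.211, adjusted p = 0.0309), or 2.53-fold lower, and those of −1.30 in KLF1-/- (adjusted p = 0.347) and −1.37 in KLF1-/- KLF2-/- (adjusted p = 0.198) were not. That call was lost in 11 of 14 fits that left out 1 array, with adjusted p from 0.0538 to 0.116, and held without wild-type array 9 or 12 or KLF1-/- array 6. It held under all 7 alternative settings that kept all arrays, with adjusted p from 0.00359 to 0.021.

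The brightest Cd24a probe set, 1437502_x_at, read 7.67, 9.36 and 9.25 in KLF1-/- and 8.79, 9.02 and 9.02 in KLF1-/- KLF2-/-, against 9.60, 10.05 and 10.78 at the lowest, median and highest in wild type, with no overlap. Its pooled difference of −1.27 did not pass (SE 0.252, adjusted p = 0.126) and was called under 2 of 8 alternatives (0.0425 to 0.143). On 1448182_a_at the values were 7.14, 9.02 and 7.81 in KLF1-/- and 8.02, 8.34 and 7.79 in KLF1-/- KLF2-/-, against 8.49, 9.34 and 10.21 at the lowest, median and highest in wild type, and the pooled difference was −1.29 (SE 0.292, adjusted p = 0.266), called under 3 of 7 alternatives (0.00853 to 0.234). The KLF1-/- arrays spread most here, with SDs of 0.95 and 0.96 on these 2 probe sets and array 5 lowest on both. Unlike Ermap, Cd24a read lower in wild type 9 to 12 than in wild type 1 to 4, and its within-run differences were −1.49 to −1.54 in KLF1-/- and −1.05 to −1.14 in KLF1-/- KLF2-/-. The 3 probe sets measure 1 gene and are not replicates, and the x_at set may take up signal from related sequences.

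Cd44, the hyaluronan receptor and carrier of the Indian blood group, is known to decline as definitive erythroblasts mature. Its bright probe set, 1423760_at, read 6.96, 8.26 and 7.39 in KLF1-/- and 8.10, 8.57 and 7.56 in KLF1-/- KLF2-/-, against 6.51, 7.43 and 8.11 at the lowest, median and highest in wild type. The groups overlapped, and the differences were 0.089 in KLF1-/-, 0.63 in KLF1-/- KLF2-/- (unadjusted p = 0.0803, adjusted p = 0.9999) and 0.36 together, with an interval from −0.21 to 0.93. Macrophage and platelet marker sums were also higher in KLF1-/- KLF2-/-, on every array, whereas its Cd44 values overlapped those of wild type. The part of these cells in the Cd44 difference was not tested. The dim probe set 1452483_a_at, which lay below the median level of all probe sets, gave a pooled difference of −0.026.

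The 2 mutant genotypes were then set against each other, the comparison that asks what the added lack of KLF2 does. No probe set of the array passed in limma, with 142 at an unadjusted p under 0.05 (0.628% of all), and 0 of the 15 probe sets of the surface genes reached even that without the run as a block, where 0% of all were called. Their differences, KLF1-/- KLF2-/- minus KLF1-/-, ran from −0.27 for Kel to 0.54 for Cd44 1423760_at. The 95% intervals allowed −0.61 to 0.73 for Icam4, −1.02 to 1.34 for Ermap and −0.75 to 0.61 for Cd24a 1416034_at. With 3 arrays each, differences between the genotypes within these intervals were not excluded. The 2 genotypes lie in different runs of title numbers, and with the run as a block these values rest on the wild-type arrays too. In that fit the difference was −1.34 for Ermap (unadjusted p = 0.00572), −1.24 for Kel (unadjusted p = 0.0205), −0.85 for Rhag and −0.84 for Gypc, all at an adjusted p of 1.

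**Figure D3:**
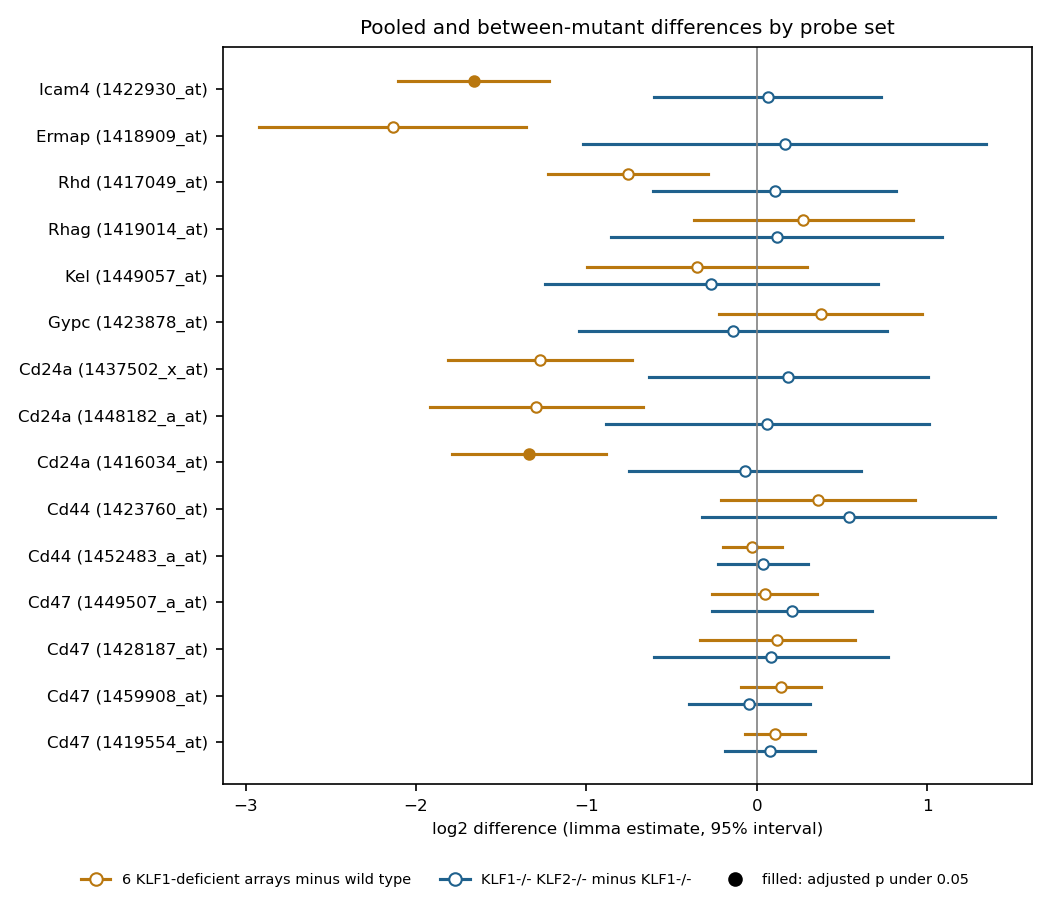
Log2 differences with 95% intervals for the 15 probe sets, in orange for the 6 KLF1-deficient arrays minus the 8 wild-type arrays and in blue for KLF1-/- KLF2-/- minus KLF1-/-; filled points passed the threshold. Only Icam4 and Cd24a 1416034_at are filled, at −1.66 and −1.34, and every blue interval includes 0.

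Genes of the same membrane systems gave few further calls, counted at the brightest probe set of each gene over the 6 mutant arrays, where 0.0565% of the 12393 genes were called lower and 0.0242% higher and the median difference was 0.0049. In KLF1-/- alone none of the 5 lists had a called gene, where 0.0403% of all genes were called lower and 0% higher. Of 25 other blood group antigen carriers 21 were measured and limma called 0, while 3 had an unadjusted p below 0.05. The median difference over the 21 was −0.023. The 2 carriers with the smallest p were Slc4a1, the band 3 anion exchanger that carries the Diego antigens, at −0.90 (adjusted p = 0.572), and Art4, the Dombrock glycoprotein, at 0.41 (adjusted p = 0.9999). All 10 blood group glycosyltransferase genes were measured, with 0 called, 0 at an unadjusted p under 0.05 and a median of 0.046. Abo, the A and B transferase, was at −0.11 and C1galt1, which builds the core of O-linked glycans, at 0.070. The differences of these enzymes were thus smaller than those of Icam4, Ermap and Cd24a.

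Of 16 genes of the ankyrin and protein 4.1 complexes 14 were measured, 0 called and 3 at an unadjusted p under 0.05, with a median of 0.052. Dmtn, the actin-bundling dematin, was at −1.13 (SE 0.201, adjusted p = 0.0657) and was called with the run as a block (adjusted p = 0.011), while Add2, beta-adducin, was at −0.35 (adjusted p = 0.404). Among 12 erythroid receptors and adhesion molecules, all measured, 0 were called and 1 had an unadjusted p under 0.05, with a median of 0.094. Tfrc, the transferrin receptor, was at −1.51 (SE 0.289, adjusted p = 0.104, and 0.0367 with the block), and the heparan sulfate proteoglycan gene Sdc1 at 0.30. The dimmer Tfrc probe sets gave pooled differences of −0.79 and −0.23.

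Of 18 binding partners and relatives of the surface genes 16 were measured, and 1, the relative Btn1a1, was called, in the higher direction. The list was drawn up with earlier results of these data known, so this count is a description and says nothing of partners. Btn1a1, a butyrophilin and relative of Ermap rather than a partner, averaged 8.24 ± 0.48 in KLF1-/- and 9.004 ± 0.23 in KLF1-/- KLF2-/-, against 6.94 ± 0.56 in wild type. Its pooled difference was 1.69 (SE 0.244, adjusted p = 0.0216), opposite in sign to that of Ermap, and it passed at 2.07 in KLF1-/- KLF2-/- (adjusted p = 0.0413), where 0.00807% of all genes were called higher and 0.0242% lower, but not at 1.31 in KLF1-/- (adjusted p = 0.593). With the run as a block the KLF1-/- KLF2-/- difference of Btn1a1 was 1.70 and no longer called (adjusted p = 0.0907), while the pooled one was (adjusted p = 0.00374). Its 2 dim probe sets gave pooled differences of 0.090 and 0.25, so the call rests on the brightest. Among the integrin chains and ligands that bind Icam4, Cd44 or Cd47, 0 were called. Itga2b, the platelet integrin chain, was at 0.38 and Thbs1, the Cd47 ligand thrombospondin, at 0.56. Itga2b is also among the platelet markers named above, whose summed signal was higher on the KLF1-/- KLF2-/- arrays.

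**Figure D4:**
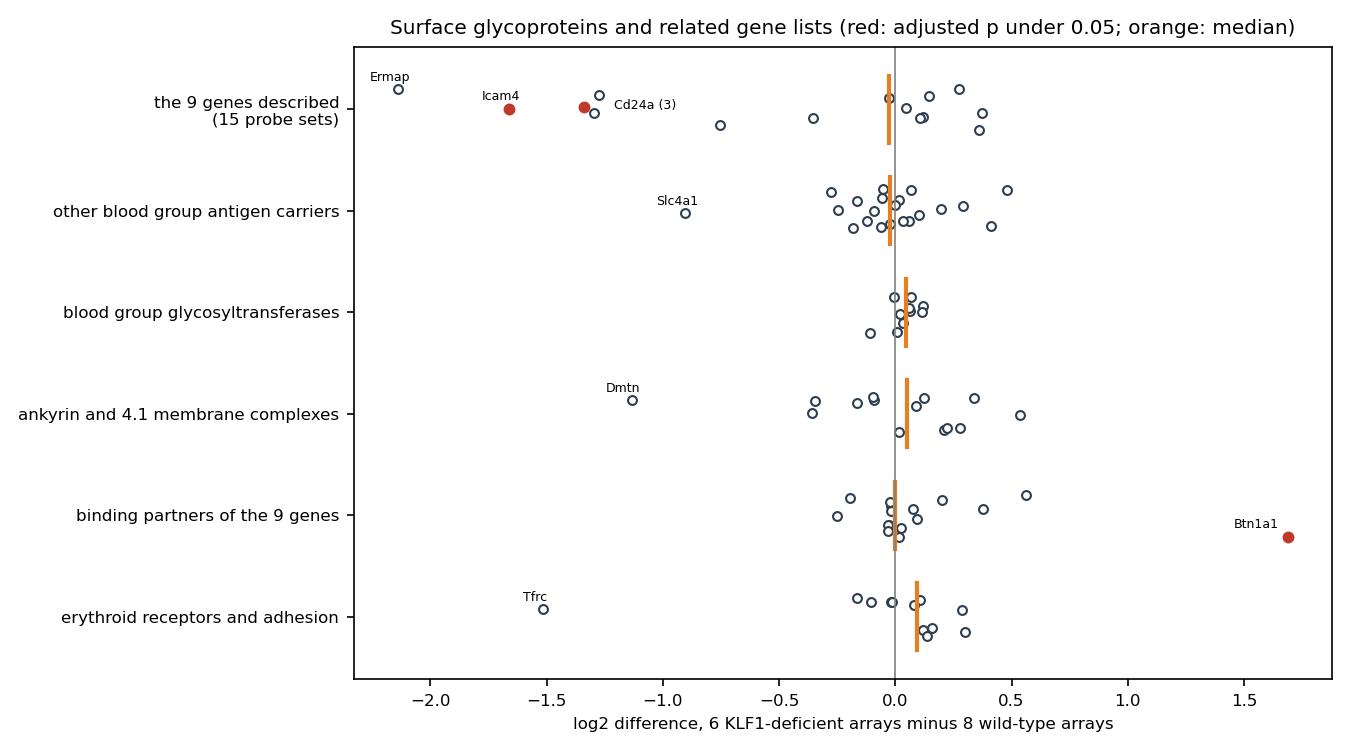
Log2 difference of the 6 KLF1-deficient arrays minus the 8 wild-type arrays for the 15 probe sets of the surface genes and for the genes of 5 related lists, 1 point each; red points passed the threshold and orange bars are medians. Icam4 at −1.66, 1 Cd24a probe set at −1.34 and Btn1a1 at 1.69 are red, and all list medians lie between −0.026 and 0.094.

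The genes whose array pattern was most like Icam4 over the 14 arrays were Kcnn4, a calcium-activated potassium channel of red cells (Pearson r = 0.968, Spearman rho = 0.934), Cldn13, a claudin (r = 0.950, rho = 0.921), and Asb17, an ankyrin repeat and SOCS box protein (r = 0.948, rho = 0.921). Within the 8 wild-type arrays r was 0.757 for Kcnn4, 0.907 for Cldn13 and 0.645 for Asb17. For Cd24a, by its brightest probe set, the nearest genes were Ybx3, a cold shock domain protein (r = 0.885, and 0.899 within wild type), Dck, deoxycytidine kinase (r = 0.864, and 0.501 within wild type), and again Asb17 (r = 0.841, and 0.724 within wild type). These are the highest values among 12393 genes over 14 arrays that share genotype and RNA amplification, and they are given as a description. For the other 7 genes the 3 nearest genes had r between 0.904 and 0.954.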

How the data were processed

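RNA of 14 laser-captured samples was hybridised to Affymetrix mouse expression arrays, 1 per sample. The authors deposited log2 values per probe set; GCOS, affy, limma and RMA are listed, without versions, in the submitters' processing notes. RMA corrects background, normalizes between arrays and summarises probes on the log2 scale, which compresses differences of dim probe sets. For the genome build, none is named (not given in the sources used here).

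Values were used as deposited. Of 22690 probe sets 64 controls were left out; the platform annotation, which can be old, gives 1 gene for 20380 of the rest, several for 691 and no gene for 1555. The 9 genes and their probe sets were taken by that annotation. Array pairs with identical values numbered 0. Genotype means were estimated over 14 arrays for all 22626 probe sets using lmFit and eBayes of limma 3.58.1 (R 4.3.3); tests were two-sided, p-values were adjusted over all probe sets by Benjamini-Hochberg, and a probe set was called at an adjusted p under 0.05. Every adjusted p comes from limma. "Pooled" is the mean of both mutant contrasts. The number of arrays limits the precision. Which samples shared a litter is not stated, and p-values measure the spread between these samples. The fit was checked on simulated data of 22626 probe sets: it recovered 98% of 50 changes of −2 and 68% of 50 changes of −1 in the KLF1-/- comparison, with 5 false calls. The simulated arrays had independent noise and no run differences, so these shares may be too high for the real arrays. They do not say what an uncalled difference means, such as Ermap at −2.22 in KLF1-/- (adjusted p = 0.347 in limma).

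The genes, gene lists and tests were chosen with earlier results of these data known. Named were all probe sets of the 9 genes, Klf1 and Klf2; of each related list up to 4 called genes, or, failing any call, the 2 of smallest p, by the brightest probe set (highest mean over the arrays); and the 3 genes most correlated with each of the 9 that had a call. The other partners named beside Btn1a1 were chosen after their values were seen. Alternatives changed the run block, the probe sets tested, the normalization, the covariates, the variance model and the arrays. Promoters were matched by symbol in a RefSeq table; Cd24a had no entry, and the Gypc promoter was not used here. Figures were made with Python 3.11.15 and matplotlib 3.10.9.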

Additional observations from a re-analysis of the deposited data

Results flagged for a closer look

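On 3 of the 15 probe sets 1 wild-type array stood far from the other 7, by the gap to its nearest neighbour relative to the range of the group. Chance alone gives such a gap in about 1 in 20 groups. Wild-type array 3 read 5.067 for Cd44 at 1452483_a_at, the highest of its group. Wild-type array 4 read 6.372 for Cd47 at 1428187_at, and wild-type array 2 read 4.983 for Cd47 at 1459908_at, each the lowest of its group. They are 3 different arrays, and 2 of the 3 probe sets lie below the median level of all probe sets. No such array was found for Icam4, Ermap, Rhd, Rhag, Kel, Gypc or Cd24a. Groups of 3 mutant arrays were too small for this check.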

How the results depend on the processing

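No paired analysis was possible because the groups share no replicate numbers; the run of title numbers (1 to 8 or 9 to 15) as a block was fitted instead. Array weights did not converge (0.167 to 93) and were not used.

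For Icam4, the pooled call held under all 8 alternatives and all 14 fits that left out 1 array; its KLF1-/- call ended with the block (adjusted p = 0.257), with the Gapdh covariate (0.0961) and with the interquartile range covariate (0.0623). Over the 14 fits without 1 array, Icam4 differences in KLF1-/- ran from −1.87 to −1.45. The pooled Ermap difference was called in 7 of 8 alternatives (adjusted p from 0.000769 to 0.0346) and not with the Gapdh covariate (0.0796). Of the 14 fits without 1 array it was called in 3, those without wild-type array 1, 3 or 9, with adjusted p from 0.0268 to 0.195 over all 14. The cause of these shifts was not tested.

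Probe sets called, of all tested, were 6 in KLF1-/-, and 2 with the block. In KLF1-/- KLF2-/- they were 5, against 8 at the brightest probe set per gene, 8 above the median level, 9 after quantile normalization, 21 with the interquartile range covariate and 10 with a trended robust variance. Between the mutants they were 0, against 1 at the brightest probe set, above the median level, after quantile normalization and after median and interquartile range scaling. Pooled, 16 were called, against 31 after quantile normalization, 29 after scaling and 47 with the interquartile range covariate. Without 1 array they ranged from 2 to 7 in KLF1-/-, 1 to 7 in KLF1-/- KLF2-/-, 0 to 1 between the mutants and 6 to 25 pooled.

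Of the 15 probe sets of the surface genes, 1 was called in KLF1-/-, 0 with the block, the Gapdh covariate or the interquartile range covariate, and 2 after quantile normalization. In KLF1-/- KLF2-/- 0 were called, 1 with the block, at the brightest probe set, above the median level, after scaling or with a trended robust variance, and 2 after quantile normalization or with the interquartile range covariate. Pooled, 2 were called, 5 after quantile normalization, 4 after scaling and 5 with the interquartile range covariate. Without 1 array the counts ran from 0 to 1 in KLF1-/-, 0 to 1 in KLF1-/- KLF2-/- and 1 to 3 pooled.

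Signs turned only for differences that were not called. In KLF1-/- these were Kel with the block (0.27); Cd44 1423760_at after quantile normalization (−0.012) and with the Gapdh (−0.070) and interquartile range (−0.070) covariates; Cd44 1452483_a_at after scaling (0.00039); and Cd47 1428187_at after quantile normalization (−0.0097) and with the interquartile range covariate (−0.051). In KLF1-/- KLF2-/- they were Rhag (−0.15) and Gypc (−0.048) with the block, and Cd44 1452483_a_at after scaling (0.0073) and with the interquartile range covariate (0.0014). Between the mutants the block gave −0.17 for Icam4, −1.34 for Ermap, −0.47 for Rhd, −0.85 for Rhag, 0.41 for Cd24a 1416034_at, −0.00021 for Cd44 1452483_a_at and −0.034 for Cd47 1428187_at. Cd24a 1416034_at was 0.024 there after quantile normalization and 0.00014 with the interquartile range covariate. Pooled, Cd44 1452483_a_at was 0.0039 after scaling, and Cd47 1449507_a_at was −0.021 after quantile normalization, −0.026 after scaling, −0.013 with the Gapdh covariate and −0.021 with the interquartile range covariate.

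Leaving out 1 array turned signs within these ranges. In KLF1-/-, Cd44 1423760_at ran from −0.27 to 0.38, Cd47 1449507_a_at from −0.24 to 0.091, 1428187_at from −0.22 to 0.32 and 1419554_at from −0.0021 to 0.18. In KLF1-/- KLF2-/-, Gypc ran from −0.00036 to 0.67, Cd44 1452483_a_at from −0.079 to 0.074 and Cd47 1428187_at from −0.14 to 0.48. Between the mutants, Icam4 ran from −0.18 to 0.24, Rhd from −0.051 to 0.29, Rhag from −0.099 to 0.30, Kel from −0.61 to 0.0070, Gypc from −0.45 to 0.22, Cd24a from −0.36 to 0.49 (1437502_x_at), −0.37 to 0.58 (1448182_a_at) and −0.26 to 0.28 (1416034_at), Cd44 1452483_a_at from −0.035 to 0.12, and Cd47 from −0.22 to 0.40 (1428187_at), −0.19 to 0.068 (1459908_at) and −0.037 to 0.15 (1419554_at). Pooled, Cd44 1452483_a_at ran from −0.061 to 0.015, and Cd47 from −0.043 to 0.15 (1449507_a_at) and −0.032 to 0.28 (1428187_at).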
